A study of Mus musculus with 36 samples.

Results

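The data described here are RNA-seq gene counts of control mouse embryonic fibroblasts (MEFs) undergoing reprogramming to induced pluripotent stem cells (iPSCs), sampled on day 3 and day 5 after induction. The members are the 3 control libraries of day 3 and the 3 control libraries of day 5, chosen by their labels, 6 of the 36 libraries in the series. The series holds 12 groups of 3 libraries, from MEFs through days 3, 5 and 7 to iPSCs and embryonic stem cells (ESCs), each with a control guide RNA or with Zfp266 knocked out (KO).

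Both control groups were strain 129 cells labelled wild type that carried Cas9 at Rosa26, a Nanog-GFP reporter and a doxycycline-inducible MKOS cassette (c-Myc, Klf4, Oct4 and Sox2, followed by mOrange) at Sp3. These MEFs came from chimeric embryos made with a single engineered ESC line and were plated with an excess of non-transgenic MEFs. They received a non-targeting guide by lentivirus 24 h before induction and were then kept in LIF medium with 300 ng/ml doxycycline and 10 µg/ml vitamin C, so all 6 libraries come from Cas9-expressing, transduced and induced cells. mOrange-positive cells were sorted, so residual non-transgenic MEFs depend on the purity of the sort. The KO groups differed by a guide against Zfp266. The study calls the samples of its reprogramming RNA-seq independent, without saying whether they came from separate cultures, so p-values measure only the spread between these samples, which may be technical.

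In reprogramming, the induced factors bring fibroblasts to lose mesenchymal traits, to gain epithelial ones in a mesenchymal-to-epithelial transition, and, in a part of the cells, to switch on the endogenous pluripotency network. E-cadherin (Cdh1) and the claudins hold epithelial cells together, Twist and Zeb factors maintain the mesenchymal state, and Nanog, Esrrb and Tfcp2l1 belong to the core of the naive pluripotency network. In bulk samples, more cells expressing a gene and more RNA per cell cannot be told apart.

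The 6 libraries held between 29100615 and 32789531 counts in genes, and the floor of 3 counts corresponded to between 2.75 and 3.12 normalised counts. Libraries of the same day differed by a root mean square of 0.330 to 0.402 on the log2 scale over 16899 genes, and libraries of different days by 0.608 to 0.721. Day 3 replicate 2 stood apart in its mitochondrial transcripts, which took 3.23% of its counts against 0.961% to 1.73% in the other 5 libraries. Without it, 778 genes were called higher and 396 lower, against 1054 and 397 with it. Zfp266 itself (chr9:20495068-20521417, minus strand) had 1417, 1598 and 1579.7 normalised counts on day 3 and 1266, 1481 and 1519.8 on day 5 in control cells. It averaged 1909.9 ± 122 on day 3 and 1620.0 ± 103 on day 5 in the libraries labelled KO (SD, n = 3). Gene counts do not show small insertions or deletions made by Cas9, so they do not check the KO labels.

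Between day 3 and day 5 the control cells gained epithelial and pluripotency transcripts and lost mesenchymal ones. A gene was called a differentially expressed gene (DEG) at a false discovery rate (FDR) under 0.05 and a log2 fold change beyond 1 in size, in a DESeq2 Wald test fitted to all 36 libraries. Of 21020 genes tested, 1054 were higher on day 5 (5.01%) and 397 lower (1.89%). Without the fold change threshold, 2658 genes were higher (12.6%) and 2743 lower (13.0%), so the calls were split evenly by FDR and leaned to higher genes only among large changes. The higher DEGs were of low abundance, with a median of 24.0 normalised counts on day 3 and 81.0 on day 5, and 31 of them had no count in any day 3 library. The lower DEGs had a median of 104 on day 3 and 42.2 on day 5. A log2 fold change above 2 was reached by 393 of the higher DEGs, and 52 of the lower DEGs fell by more than 2 on the log2 scale. The libraries of the 2 days did not overlap for 1012 of the higher and 384 of the lower DEGs, where the background over all genes tested was 21.4% higher and 22.5% lower. The DEGs were called from these same libraries, so this largely follows from the call and is no separate support.

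The promoters of 3 genes are shown because their genes stand for what the comparison found: Nanog for the pluripotency genes, Cldn4 for the epithelial genes, and Tfcp2l1 for the genes whose change differed between control and KO cells. Each is the 250 bases upstream of the annotated start, 5′ to 3′ on the gene's strand, from RefSeq (GRCm38.p6). Nanog is read from chr6:122707239-122707488 on the plus strand, Cldn4 from chr5:134946935-134947184 on the minus strand and Tfcp2l1 from chr1:118627695-118627944 on the plus strand. Capitals mark an octamer beside a SOX site in Nanog (CATTGT, any base, then ATGCAAA, on either strand), AP-1 sites (TGANTCA) in Cldn4 and a TATA box (TATAAA) in Tfcp2l1.
Nanog: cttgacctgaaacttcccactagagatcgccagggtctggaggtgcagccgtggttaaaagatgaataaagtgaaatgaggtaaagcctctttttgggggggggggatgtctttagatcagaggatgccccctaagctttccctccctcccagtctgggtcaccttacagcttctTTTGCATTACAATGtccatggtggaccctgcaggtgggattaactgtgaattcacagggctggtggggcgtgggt
Cldn4: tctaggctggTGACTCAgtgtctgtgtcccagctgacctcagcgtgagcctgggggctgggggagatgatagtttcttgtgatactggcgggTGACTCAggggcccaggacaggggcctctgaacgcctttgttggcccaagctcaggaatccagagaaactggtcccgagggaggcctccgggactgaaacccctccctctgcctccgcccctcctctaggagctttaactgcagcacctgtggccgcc
Tfcp2l1: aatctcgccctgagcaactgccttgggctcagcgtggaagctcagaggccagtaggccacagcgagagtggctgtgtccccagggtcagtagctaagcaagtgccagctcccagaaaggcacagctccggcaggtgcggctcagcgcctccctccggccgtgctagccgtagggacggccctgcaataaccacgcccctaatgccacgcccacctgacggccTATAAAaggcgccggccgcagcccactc

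The Nanog match began 75 bases before the start, the Cldn4 matches 240 and 158 bases before it and the Tfcp2l1 match 28 bases before it. Of 12856 promoters of tested genes in the table, 1 held the octamer beside a SOX site, which was that of Nanog. The AP-1 letters, counted on both strands, were in 63 of 715 promoters of higher DEGs (8.81%), 11 of 284 of lower DEGs (3.87%) and 4.81% of all. The octamer core alone (ATGCAAA) was in 5.45%, 2.46% and 3.12% of them, and TATAAA in 10.1%, 7.75% and 7.34%. The CACCC box bound by KLF factors (CCACNCCC) was in 22.4%, 28.5% and 21.1%. It also occurred in the printed Nanog and Tfcp2l1 promoters, where it is not marked. These are matches of letters, given as a description with no test.

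Pluripotency transcription factors rose. Of 15 measured, 9 were higher and 1 lower at FDR under 0.05, with a median log2 fold change of 0.94 beside 0.00 over all genes tested. Nanog, the homeobox factor whose activation marks late reprogramming, had 2.75, 5 and 7.75 normalised counts on day 3 and 82.5, 106 and 125 on day 5 (log2 fold change 4.35 ± 0.40 SE, FDR = 1.57e-25). Esrrb, an orphan nuclear receptor of the naive network, had 69.7, 45 and 67.8 on day 3 and 669, 735 and 579 on day 5 (log2 fold change 3.44 ± 0.15 SE, FDR = 8.95e-107). Tfcp2l1 had 55, 66 and 66.9 and then 349, 414 and 428 (log2 fold change 2.66 ± 0.19 SE, FDR = 1.81e-40). For all of these the 3 day 5 libraries lay above every day 3 library. Sall4, a zinc finger factor that acts with Oct4, rose 3.33-fold, with 438, 303 and 334 on day 3 and 1425, 1136 and 1026 on day 5 (FDR = 1.72e-32). Zscan10 rose from 148 ± 10.6 to 416 ± 77.7 and Zfp42 (Rex1) from 149 ± 5.16 to 289 ± 42.5 (mean ± SD, n = 3).

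These levels were below those of pluripotent cells. Control ESCs averaged 7605 ± 206 normalised counts of Nanog, 17371 ± 1206 of Esrrb and 12409.6 ± 1315 of Tfcp2l1 (SD, n = 3). Klf5, a KLF factor of ESCs, fell (488, 561 and 537 on day 3 and 407, 372 and 417 on day 5, log2 fold change -0.41 ± 0.11 SE, FDR = 0.00133). Prdm14 was at or under the floor of 3 counts in both groups.

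Among 23 other pluripotency-associated genes, 12 were higher and 1 lower, with a median log2 fold change of 0.46. Fgf4, a growth factor made by pluripotent cells, had 0.917, 0 and 4.85 on day 3 and 29.1, 59.9 and 44.8 on day 5 (FDR = 3.80e-11). Piwil2, a PIWI protein of the germ line, had 33, 14 and 14.5 and then 195, 251 and 210.3 (log2 fold change 3.40 ± 0.30 SE, FDR = 4.27e-27). Alpl, the alkaline phosphatase used to stain pluripotent colonies, had 209, 317 and 375 and then 1467, 2797 and 3041 (log2 fold change 3.02 ± 0.31 SE, FDR = 3.93e-20). Each of these showed no overlap between days, and the day 5 libraries of Alpl were the most spread. Fbxo15, an early reporter gene of reprogramming, rose from 18.2 ± 8.48 to 80.5 ± 21.5 (FDR = 2.12e-10). The Nodal pathway genes Tdgf1, Lefty1 and Lefty2 had log2 fold changes of 2.49, 2.60 and 1.42 (FDR = 0.0035, 3.81e-08 and 0.00101). Fut4, a fucosyltransferase, fell from 157 ± 9.81 to 75.1 ± 3.51 (FDR = 0.00497). Dppa2 and Dppa3, which mark late pluripotency, stayed at or under the floor on both days.

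The transgene's own factors did not pass the test. Reads of the cassette and of the endogenous genes are summed in these counts. Pou5f1 (Oct4) had 39976, 42926 and 43983 normalised counts on day 3 and 47013, 43229 and 49555 on day 5 (log2 fold change 0.14 ± 0.11 SE, FDR = 0.363). Sox2 had a log2 fold change of -0.28 (FDR = 0.214), Klf4 of -0.29 (FDR = 0.259) and Myc of -0.28 (FDR = 0.306). For Sox2, Klf4 and Myc every day 5 library lay below every day 3 library, as held for 22.5% of all genes tested. Control MEFs without the induced cassette averaged 37 ± 12.9 normalised counts of Pou5f1.

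Most epithelial genes measured rose. Of 22 epithelial junction genes, 15 were higher and 1 lower, with a median log2 fold change of 1.33, and of 17 epithelial keratins and regulators, 15 were higher and 0 lower, with a median of 1.77. Cldn4, a tight junction claudin, had 238, 121 and 179 on day 3 and 1507, 1849 and 1954 on day 5 (log2 fold change 3.30 ± 0.32 SE, FDR = 5.60e-23). Cldn7 had 72.4, 39 and 67.8 and then 783, 756 and 864 (log2 fold change 3.74 ± 0.40 SE, FDR = 1.64e-18). Pkp3, a desmosomal plakophilin, had 93.5, 75 and 87.2 and then 590.3, 441 and 482 (log2 fold change 2.56 ± 0.22 SE, FDR = 1.93e-29). In all of these the groups were far apart compared with their spread. Ocln rose from 77.5 ± 13.4 to 259 ± 22.8 (FDR = 2.56e-17), Cdh1 from 6519.9 ± 701 to 17389.6 ± 726 (FDR = 1.86e-09) and Epcam from 730.0 ± 183 to 1975 ± 293 (FDR = 1.70e-05). Cdh3 (P-cadherin) went the other way, with 222, 161 and 180.3 on day 3 and 141, 109 and 79.1 on day 5 (log2 fold change -0.77 ± 0.28 SE, FDR = 0.0244). Its call was lost with edgeR (FDR = 0.059) and without day 3 replicate 1, day 5 replicate 2 or day 5 replicate 3.

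Spint1, an inhibitor of epithelial surface proteases, had 193, 114 and 129.9 on day 3 and 1001, 907 and 762 on day 5 (log2 fold change 2.61 ± 0.19 SE, FDR = 7.92e-42), and its relative Spint2 rose 2.41-fold (FDR = 6.88e-26). Ap1m2, the epithelial clathrin adaptor subunit, rose from 157 ± 29.3 to 1079 ± 104 (FDR = 5.92e-15). Among the transcription factors of epithelia, Grhl3 rose from 164 ± 48.3 to 559 ± 6.12 (FDR = 2.16e-13) and Grhl2 from 10.5 ± 2.96 to 47.3 ± 3.11 (FDR = 5.63e-06). Esrp1, which sets epithelial splicing, rose 4.66-fold (FDR = 1.68e-09), and Ovol2 had a log2 fold change of 0.10 (FDR = 0.899).

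Keratins of stratified epithelia were also high. Of 9 keratinocyte markers 4 were higher and 0 lower, and without day 3 replicate 2, which was the lowest for Krt17, Krt6a, Krt5 and Sfn, 2 were higher. Krt17 had 2580.1, 1885 and 3883 on day 3 and 11816, 15226 and 17953 on day 5 (log2 fold change 2.43 ± 0.39 SE, FDR = 2.45e-08). The summed level of the list ranged from 15213 to 28701 on day 3 and from 43456 to 52244 on day 5. The terminal markers Lor and Ivl had log2 fold changes of -0.04 and 0.24 (FDR = 0.991 and 0.836). Over the gene families named by symbol, chosen after their values were seen, 12 of 28 keratins and 6 of 9 kallikrein proteases (Klk8 and Klk10 to Klk14) were higher DEGs, against 5.01% of all genes tested, and none was a lower DEG, against 1.89%. Of these 12 keratins, Krt18 and Krt19 averaged less on day 5 than in control MEFs. Krt18 averaged 1557.8 normalised counts in MEFs, 46.65 on day 3 and 147.3 on day 5, and Krt19 1790.2, 339.9 and 894.4. Their rise followed a fall from MEFs to day 3 and did not reach the MEF level. The other called keratins averaged more on day 5 than in MEFs. Klk11 rose from 109 ± 34.4 to 654 ± 143 (FDR = 2.98e-22). Neighbouring Klk genes lie in 1 cluster and are similar in sequence, so their counts are not independent.

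**Figure D1:**
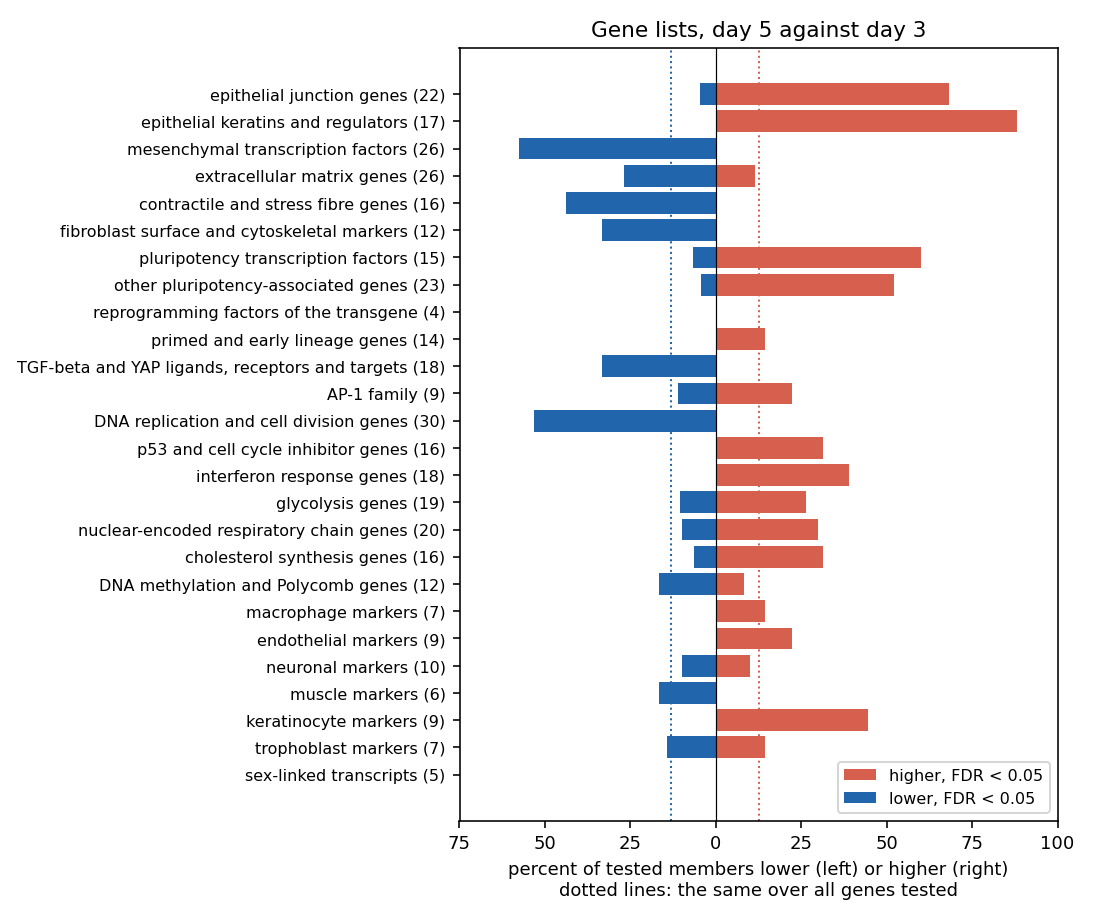
Share of the tested members of each gene list that was higher (right, red) or lower (left, blue) on day 5 at FDR under 0.05, with the number tested in brackets; dotted lines give the same share over all genes tested, 12.6% and 13.0%. The epithelial lists reach farthest to the right, with 15 of 22 and 15 of 17 members higher, and the mesenchymal transcription factors farthest to the left, with 15 of 26 lower.

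Mesenchymal transcription factors fell. Of 26 tested, 0 were higher and 15 lower, with a median log2 fold change of -0.77. Twist2, a basic helix-loop-helix factor of mesenchyme, had 453, 504 and 430.3 on day 3 and 183, 185 and 173 on day 5 (log2 fold change -1.36 ± 0.14 SE, FDR = 1.42e-19). Twist1 had 276, 271 and 267 and then 102, 100.1 and 132 (log2 fold change -1.29 ± 0.22 SE, FDR = 1.97e-07). Prrx1, a limb and fibroblast homeobox factor, had 1779, 1801 and 1669 and then 786, 1046 and 1199 (log2 fold change -0.79 ± 0.15 SE, FDR = 1.17e-06). Day 5 lay below day 3 in every library for these 3 genes. Foxc1, Zeb1 and Snai2 fell by 0.75, 1.09 and 1.56 on the log2 scale (FDR = 1.94e-06, 3.53e-05 and 3.25e-04). Snai1 had a log2 fold change of 0.44 (FDR = 0.0656) and Zeb2 of -0.63 (FDR = 0.128), and neither passed the test.

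The matrix and contractile genes changed less evenly. Of 26 extracellular matrix genes, 7 were lower and 3 higher, with a median log2 fold change of -0.34. Over all genes tested 13.0% were lower and 12.6% higher, so the share of matrix genes higher was near the background. The number of matrix genes lower was 3 without day 3 replicate 1 and 4 without day 5 replicate 2. It was 12 with only the 6 libraries of this comparison fitted. Col5a1, a fibrillar collagen chain, had 4794, 3274 and 4442 on day 3 and 2113, 1542 and 2211 on day 5 (log2 fold change -1.09 ± 0.17 SE, FDR = 2.77e-09). The lysyl oxidase relative Loxl2 fell from 2350.2 ± 244 to 1227 ± 278 (FDR = 2.95e-05) and tenascin C (Tnc) from 1238 ± 247 to 538 ± 166 (FDR = 0.00406). The higher members were Fbln2 (log2 fold change 0.35 ± 0.10 SE, FDR = 0.00244), Mfap5 (FDR = 0.0317) and Eln (FDR = 0.0375). The calls of Mfap5 and Eln were lost on leaving out single libraries, at FDR up to 0.19 for Mfap5 without day 5 replicate 3 and 0.25 for Eln without day 5 replicate 1. The collagens Col1a1, Col1a2 and Col3a1 had log2 fold changes of -0.92, -0.46 and -0.31 and did not pass.

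Of 16 contractile and stress fibre genes, 7 were lower and 0 higher, and 4 were lower without day 3 replicate 3 or without day 5 replicate 2. The shares over all genes tested were 13.0% lower and 12.6% higher. Calponin (Cnn1) had 107, 86 and 129.9 on day 3 and 16.5, 25.8 and 25 on day 5 (log2 fold change -2.27 ± 0.33 SE, FDR = 2.17e-10). Smooth muscle myosin (Myh11) had 174, 70.0 and 147 and then 19.4, 18.6 and 40.6 (log2 fold change -2.32 ± 0.43 SE, FDR = 1.83e-06). Day 3 replicate 2 was the lowest of its group for both. Of 12 fibroblast surface and cytoskeletal markers tested, 4 were lower and 0 higher, and 2 were lower without day 5 replicate 1 or without day 5 replicate 2. N-cadherin (Cdh2) had 1913, 2030.1 and 2056 and then 773, 841 and 779 (log2 fold change -1.33 ± 0.20 SE, FDR = 5.19e-10), while Thy1 and Cd44 had log2 fold changes of -0.23 and -0.15 and did not pass. Vimentin (Vim) fell from 11863 ± 1769.6 to 5611 ± 773 (FDR = 0.0251), and its call was lost on leaving out day 3 replicate 2 (FDR = 0.098), day 3 replicate 3, day 5 replicate 1 or day 5 replicate 2.

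Transforming growth factor beta (TGF-beta) ligands and targets fell in part. Of 18 genes of this list, 6 were lower and 0 higher, with a median log2 fold change of -0.39. Among all genes tested, 13.0% were lower and 12.6% higher. Among the ligands, Tgfb3 had 445, 373 and 452 on day 3 and 245, 195 and 244 on day 5 (log2 fold change -0.89 ± 0.13 SE, FDR = 2.34e-10), and Inhba, an activin subunit, had 389.7, 297 and 376 on day 3 and fell by 1.45 on the log2 scale (FDR = 1.84e-05). Among the targets, Tgfbi had 1632, 1323 and 1574 and then 460.2, 291 and 367 (log2 fold change -2.02 ± 0.29 SE, FDR = 3.51e-10). The libraries of these genes did not overlap between days. The receptors Tgfbr1 and Tgfbr2 and the YAP targets Ccn1 and Ccn2 had log2 fold changes of -0.27, -0.17, -0.14 and -0.11 and did not pass.

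The strongest changes by FDR were not all of these kinds. Misp (chr10:79820989-79830490, plus strand), an actin-bundling protein of the mitotic spindle and cell cortex, had 283, 224 and 217 on day 3 and 1931, 2047 and 1852 on day 5 (log2 fold change 3.01 ± 0.12 SE, FDR = 9.57e-137). S100a14, an epithelial calcium-binding protein, had 88.9, 65 and 71.7 and then 947, 900.0 and 781 (log2 fold change 3.54 ± 0.16 SE, FDR = 2.51e-105). Pax5, the B-lymphocyte commitment factor, rose from 22.4 ± 4.07 to 365 ± 26.3 (log2 fold change 4.03 ± 0.22 SE, FDR = 5.17e-69). The 3 day 5 libraries of each exceeded the day 3 libraries several times over, where the rule for choosing them required that the days not overlap. 2300002M23Rik rose 3.97-fold, Fermt3 (kindlin-3, of blood cells) 3.99-fold, Scnn1b (a sodium channel subunit of epithelia) 7.41-fold and Slc8b1 (the mitochondrial sodium-calcium exchanger) 3.58-fold. By size, Zp3, a zona pellucida glycoprotein of the oocyte, rose from 6.34 ± 2.45 to 141 ± 10.9 (FDR = 1.17e-23). Chdh, choline dehydrogenase, rose from 46.6 ± 18.6 to 858 ± 125 (FDR = 7.78e-67), Miox, an inositol oxygenase, from 5.16 ± 2.6 to 103 ± 27.5 (FDR = 3.84e-16) and the water channel Aqp8 from 20.6 ± 6.76 to 327 ± 46.6 (FDR = 4.48e-04).

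Among the lower genes, Pcdh18, a protocadherin, had 521, 404 and 394 on day 3 and 111, 119.7 and 115 on day 5 (log2 fold change -1.94 ± 0.15 SE, FDR = 3.53e-34). Crabp1, a retinoic acid-binding protein, had 1430.3, 1178 and 1363 and then 304, 157 and 201 (log2 fold change -2.58 ± 0.24 SE, FDR = 5.92e-24). Zdbf2, an imprinted gene, had 411, 413 and 456 and then 94.2, 130.0 and 127 (log2 fold change -1.87 ± 0.15 SE, FDR = 2.78e-33). None of their day 5 libraries reached the day 3 range, which the rule for choosing them required. The sulfotransferase Chst2 fell by 1.83 on the log2 scale, the carboxypeptidase Cpd by 1.33, the adenylate kinase Ak4 by 1.01, the sialyltransferase St3gal1 by 1.36 and the lymphotoxin receptor Ltbr by 1.23. Emilin2, Gpr176 and Megf10 fell from 274 ± 78.6 to 53 ± 5.77, from 374 ± 48.8 to 74.7 ± 27.3 and from 422 ± 37.7 to 95.5 ± 20.4 (mean ± SD, n = 3). Fermt3, Pax5, Chdh, Zdbf2, Tk1, Adam19, Pou5f1, Twist2, Col5a1, Loxl2, Tnc, Eln, Sall4, Tgfb3, Jund, Jun, Ccna2, Cxcl10, Slc2a1, Fdft1, Tet2, Ezh2, Nefl, Des, Krt6a, Krt5, Ovol2, Grhl2, Esrp1, Zeb1, Zeb2, Ccn2, Cdkn1a, Klk14 and Klk8 overlap an annotated gene on the opposite strand, and the strand setting of the counting is not given in the sources used here, so reads of the overlapping parts cannot be told apart.

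**Figure D2:**
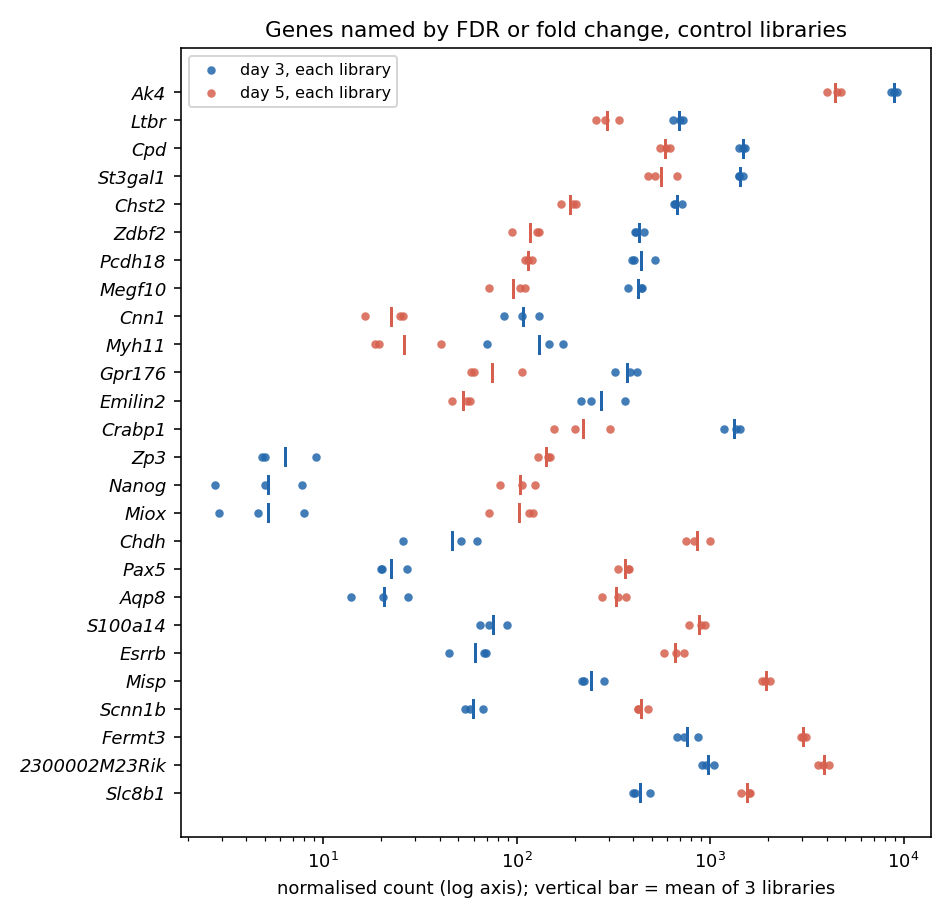
Normalised counts (horizontal log axis) of the genes with the lowest FDR or the largest fold change in the 3 day 3 libraries (blue) and the 3 day 5 libraries (red), with a vertical bar at each mean. The points of the 2 days do not overlap for any of these genes, which the rule for choosing them required.

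The listed cell division genes fell slightly. The counts of this and the next list stand beside 12.6% higher and 13.0% lower over all genes tested. Of 30 DNA replication and cell division genes, 0 were higher and 16 lower, with a median log2 fold change of -0.29, and 1 was a DEG. It was Ccne1 (cyclin E1), which had 543, 465 and 569 on day 3 and 266, 267 and 226 on day 5 (log2 fold change -1.05 ± 0.15 SE, FDR = 1.93e-10). Aurka, Ccna2 and Tyms fell by 0.41, 0.46 and 0.42 on the log2 scale (FDR = 5.61e-07, 1.38e-06 and 4.81e-06). Without day 5 replicate 3, 10 of the 30 were lower. Thymidine kinase (Tk1), which is not in the list, rose by 0.63 on the log2 scale (FDR = 1.18e-06). Of 16 p53 and cell cycle inhibitor genes, 5 were higher (8 with only the 6 libraries fitted) and 0 lower, among them Trp53inp1 (log2 fold change 0.85 ± 0.17 SE, FDR = 1.20e-05) and Bbc3 (FDR = 0.00128), while Cdkn1a and Cdkn2a had log2 fold changes of 0.23 and 0.24 and did not pass.

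Of 18 interferon response genes, 7 were higher and 0 lower, and 4 were higher without day 3 replicate 2 and 3 without day 5 replicate 3. Bst2 (tetherin) had 425, 467 and 443 on day 3 and 920.3, 977 and 941 on day 5 (log2 fold change 1.09 ± 0.12 SE, FDR = 9.51e-19), and Xaf1 had 900.4, 1037 and 1242 and then 2477, 3164 and 3560.1 (log2 fold change 1.53 ± 0.27 SE, FDR = 5.02e-07). Stat2 rose from 169.7 ± 9.81 to 283 ± 10.4 (FDR = 5.10e-04). Other called members such as Cxcl10 stood near the floor, with 0.917, 2 and 0.969 on day 3 and 1.94, 21.7 and 15.6 on day 5. In the AP-1 family, Atf3 and Jund were higher and Batf3 lower of 9, against 12.6% and 13.0% of all genes tested. Atf3, a stress-induced factor, had 366, 349 and 342 and then 904, 1094 and 1148 (log2 fold change 1.57 ± 0.19 SE, FDR = 1.77e-14). Fos and Jun had log2 fold changes of 0.08 and 0.44 and did not pass.

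Metabolic lists held genes of both directions. Of 19 glycolysis genes, 5 were higher and 2 lower, with the glucose transporter Slc2a1 rising from 935 ± 45.1 to 1791 ± 229 (FDR = 1.67e-06) and Aldoc from 4.46 ± 0.904 to 45.2 ± 5.85 (FDR = 9.96e-09), while Hk2 and Pgam1 fell by 0.24 and 0.18 on the log2 scale. With only the 6 libraries of this comparison fitted, 8 glycolysis genes were higher. Of 20 nuclear-encoded respiratory chain genes, 6 were higher and 2 (Cycs and Uqcrfs1) lower, with none a DEG. Of 16 cholesterol synthesis genes, 5 were higher, led by Fdft1 (log2 fold change 0.79 ± 0.17 SE, FDR = 6.17e-05) and none of them a DEG, and 1 was lower and a DEG. With only the 6 libraries of this comparison fitted, 12 were higher. Of 12 DNA methylation and Polycomb genes, Tet2 was higher (log2 fold change 0.77 ± 0.16 SE, FDR = 2.03e-05) and Ezh2 and Tet1 lower (FDR = 0.00618 and 0.0341). Over all genes tested 12.6% were higher and 13.0% lower, and the DNA methylation and Polycomb counts were near these shares. In the metabolic lists the share higher was above 12.6% and the share lower below 13.0%, and no list was tested as a whole. The call of Tet1 was lost with edgeR (FDR = 0.074), with only the 6 libraries fitted (FDR = 0.064), and without day 3 replicate 2 or 3 or day 5 replicate 1 or 2 (FDR from 0.055 to 0.25).

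Of 14 primed and early lineage genes tested, 2 were higher (4 with only the 6 libraries fitted), Tfap2c (log2 fold change 1.91 ± 0.49 SE, FDR = 9.88e-04) and Pax6 (FDR = 0.0122), the second not without day 3 replicate 2 (FDR = 0.065). That share was near the 12.6% of all genes tested that were higher, where 13.0% were lower. Markers of other cell types were counted as well, to be read beside the same shares. Of macrophage markers 1 of 7 was higher (Cd68, from 70.0 ± 20.8 to 149 ± 14.6) and 0 lower, and the summed level ranged from 104 to 249 on day 3 and from 166 to 313 on day 5. Of endothelial markers 2 of 9 were higher, Tie1 (7.34, 5 and 11.6 on day 3 and 96.1, 99.1 and 102 on day 5) and Vwf, while the defining marker Cdh5 was at or under the floor and Emcn had no count in the 6 libraries. The sums were 494 to 605 and 790.2 to 1009. Of neuronal markers Nefl was higher and Gap43 lower of 10 (sums 30502 to 33459 and 36250.4 to 36963), of muscle markers Des was lower of 6 (sums of at most 440.0 and 246), and of trophoblast markers Elf5 was higher and Ascl2 lower of 7 (sums 566 to 758 and 679.6 to 809.9). Nefl was not called without day 3 replicate 2 (FDR = 0.093). None of 5 sex-linked transcripts passed. Their part in the other results was not tested.

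The higher DEGs were set beside control ESCs and MEFs, a comparison that shares no library with days 3 and 5. Of the 1054 higher DEGs, 503 (47.7%) were higher in ESCs than in MEFs by the same thresholds and 236 (22.4%) lower, against 25.8% and 29.5% of the genes tested between days, or 26.0% and 29.4% of the 21436 genes tested between ESCs and MEFs. Of the 397 lower DEGs, 274 (69.0%) were lower in ESCs than in MEFs and 63 (15.9%) higher. The other 315 higher DEGs (29.9%) were called in neither direction, as were 44.7% of all genes. In 484 of the higher DEGs (45.9%), all 3 day 5 libraries lay above every control MEF, iPSC and ESC library, and in the day 5 KO libraries, which did not choose the DEGs, the same held for 487 (46.2%), against 19.8% and 19.5% of all genes tested. Misp averaged 5.3 ± 1.59 in MEFs, 12.1 ± 7.09 in iPSCs and 14.4 ± 2.41 in ESCs. Krt17 had no count in the MEF libraries and averaged 408 ± 29.2 in ESCs. On day 7 Misp averaged 2829 ± 112, S100a14 1366 ± 105 and Pax5 843 ± 132 (SD, n = 3).

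**Figure D3:**
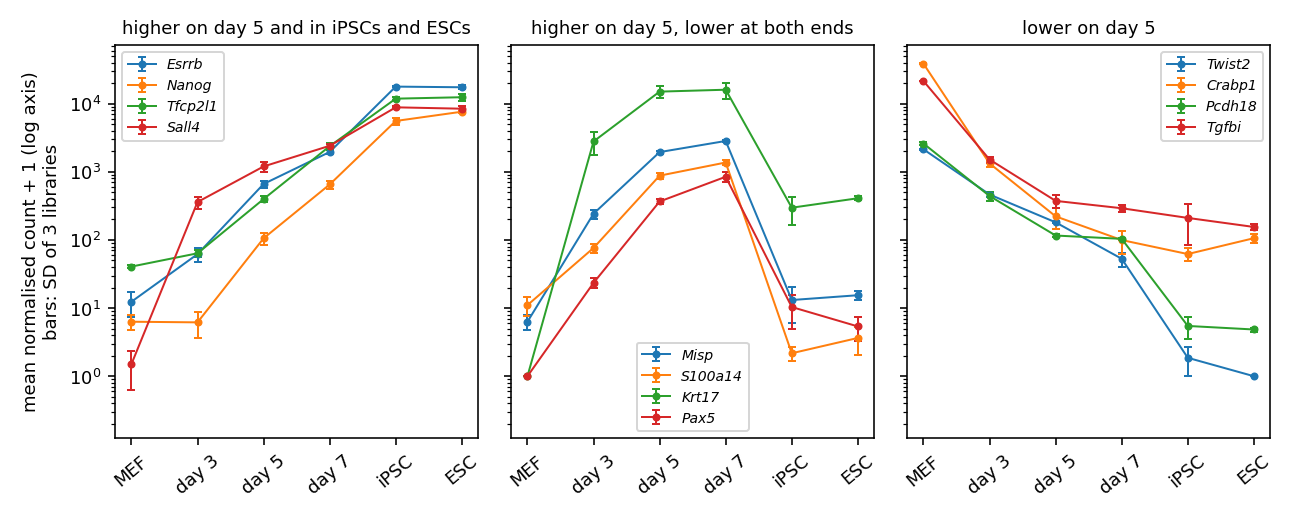
Mean normalised count plus 1 (vertical log axis; bars are the SD of 3 libraries) of 12 genes in control MEFs, on days 3, 5 and 7, in iPSCs and in ESCs. Esrrb, Nanog, Tfcp2l1 and Sall4 are higher in iPSCs and ESCs than on day 5, Misp, S100a14, Krt17 and Pax5 are lower there than on day 5, and Twist2, Crabp1, Pcdh18 and Tgfbi are highest in MEFs.

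The same step in Zfp266-KO cells rests on 6 other libraries. Of the 1054 genes called higher in control cells, 791 (75.0%) were called higher in KO cells, where the background was 5.74%, and of the 397 called lower, 315 (79.3%) were called lower, where it was 3.51%. None was called in the opposite direction at FDR under 0.05. The difference between the genotypes' changes was tested as an interaction in the same model. It passed in 17 of 10631 genes given an FDR, 16 with a more positive change in KO cells (0.151%) and 1 with a more negative one (0.00941%). An interaction FDR was given to 283 of the 1054 higher and 140 of the 397 lower control DEGs, of which 2 and 1 passed. Most control DEGs are therefore not covered by this count. Tfcp2l1 rose in both, by 2.66 on the log2 scale in control and 4.37 in KO cells (difference 1.70 ± 0.28 SE, FDR = 6.50e-06). It averaged 43.4 ± 8.73 on day 3 and 894 ± 249 on day 5 in KO cells. Tk1, thymidine kinase, rose by 0.63 in control and 1.60 in KO cells (difference 0.97 ± 0.16 SE, FDR = 6.50e-06). Zdbf2 fell by 1.87 on the log2 scale in control and by 0.81 in KO cells (difference 1.06 ± 0.20 SE, FDR = 7.64e-04). Adam19, a membrane protease, had log2 fold changes of -0.36 in control and 1.08 in KO cells (difference 1.44 ± 0.30 SE, FDR = 0.00373). Cd40 had 0.27 and -0.38 (difference -0.65 ± 0.16 SE, FDR = 0.049). With only the 12 libraries of these 4 groups fitted 88 genes passed, and without independent filtering 8. With edgeR 2 genes passed, and Zdbf2 (FDR = 0.059), Adam19 (FDR = 0.14) and Cd40 (FDR = 0.98) were not among them. Between 4 and 28 genes passed on leaving out single libraries; Adam19 did not without day 5 KO replicate 2 (FDR = 0.20), and the call of Cd40 was lost without any 1 of the 12 libraries (FDR from 0.052 to 0.63).

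**Figure D4:**
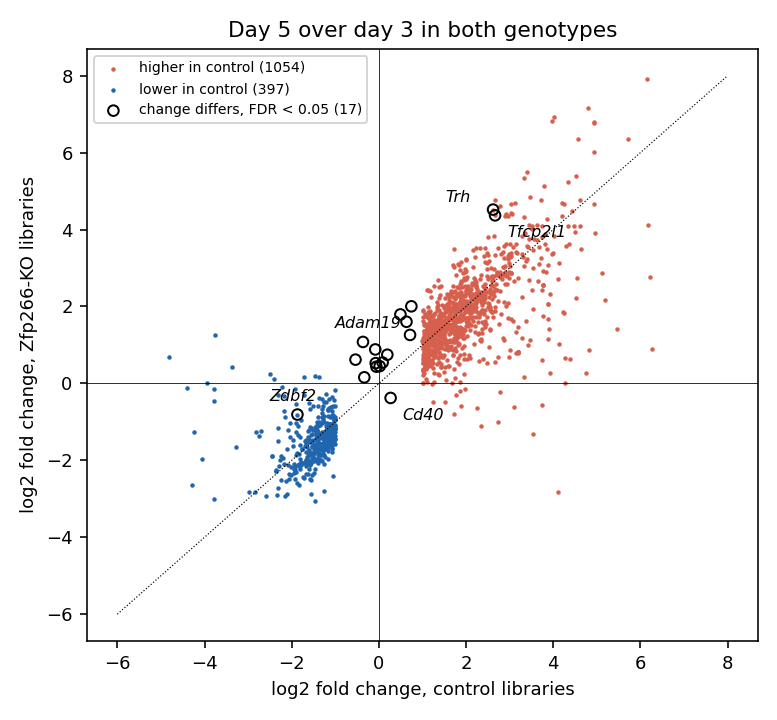
Log2 fold change of day 5 over day 3 in Zfp266-KO cells (vertical axis) against control cells (horizontal axis). Coloured points are the 1054 higher (red) and 397 lower (blue) control DEGs. Black rings mark the 17 genes whose change differed between genotypes, of which 2 were higher and 1 a lower control DEG. The dotted line marks equal change. Most rings lie above the line, and Cd40 below it.

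The steps before and after used the same day 3 or day 5 libraries and are given side by side. From MEFs to day 3, 19.5% of genes tested were called higher and 25.4% lower, and from day 5 to day 7, 4.83% and 1.08%. Nanog averaged 5.3 ± 1.59 in MEFs and 649 ± 91.9 on day 7, and Esrrb 11.4 ± 4.98 and 1951 ± 151. Twist2 averaged 2134 ± 43.6 in MEFs and 51.9 ± 12.3 on day 7, and Crabp1 38467 ± 622 and 98.5 ± 37 (SD, n = 3). The higher DEGs had a median exon length of 3346 bases and a GC content of 52.5%, the lower DEGs 4243 bases and 50.1%, and all genes tested 3340 bases and 49.6%.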

How the data were processed

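RNA-seq libraries were made by the authors from sorted cells with a stranded mRNA kit and sequenced as single-end reads. According to the paper's methods, the deposited counts are whole read counts per gene, made by the authors with STAR on GRCm38 after adapter trimming with Cutadapt and counted with Rsubread. Versions, the annotation release and the strand setting are not given in the sources used here. The authors corrected another, log-scale table for library preparation date. That table was not used, and dates are not in the labels, so preparation batch and day cannot be told apart. Tables of the authors' own normalised values and comparisons were also not used.

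Counts of all 36 libraries were fitted in DESeq2 (1.42.0, R 4.3.3) with stage and genotype as 1 factor of 12 groups. FDR is the Benjamini-Hochberg adjusted p of the Wald test, and normalised counts are counts divided by DESeq2's size factors. The range of depth over libraries is given with the results; the floor of 3 counts covers counting error only. Gene names, positions and lengths came from GENCODE M21 (GRCm38) by gene ID, with 21417 of 21442 matched. Replicates of the 2 days differed by 7.50 to 44.0 times counting variance, so no pair was taken as repeat deposits of 1 library. The fit was tested on simulated data of 21442 genes for day 5 against day 3, where it recovered 57 of 67 genes changed by a log2 fold change of 1, 62 of 67 by 1.5 and 66 of 66 by 2, with 12 false calls. Recovery was counted at FDR under 0.05 without the fold change threshold. The changed genes had a minimum mean on day 3, so genes with almost no day 3 counts were not tried. Counts were drawn with the fit's own dispersions. edgeR (4.0.16) and other settings were alternatives. Named genes were, in each direction, the 8 with the lowest FDR and the 6 with the largest change (mean of at least 100 in the higher group) among DEGs whose libraries did not overlap, up to 4 of the lowest FDR per list and members against their list, 4 interaction genes per direction, and Zfp266 with the transgene factors; further list members were named as background and chosen after their values were seen. The members and the 26 lists were chosen with earlier results of these data known. Cdx2, Mx1, Mx2, Ccl5, Fcer1g, Aif1, Myod1, Myog, Myf5, Trp63 and Tpbpa were not analysed here. Some genes that the naming rule picks are not reported here by name or value, and remain in the counts of their lists.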

Additional observations from a re-analysis of the deposited data

Results flagged for a closer look

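The change from day 3 to day 5 differed between Zfp266-KO and control cells in 17 genes by the interaction test of the DESeq2 model (FDR under 0.05, 3 libraries a group). As log2 differences, KO minus control, these were 1.70 for Tfcp2l1, 0.97 for Tk1, 1.06 for Zdbf2, 1.44 for Adam19, 1.26 for Pced1b, 0.60 for Pkmyt1, 1.90 for Trh, 0.43 for Ect2, 1.15 for Tet1, 0.55 for Trim71, -0.65 for Cd40, 0.55 for Phc1, 0.97 for Ranbp17, 1.30 for Etv5, 0.49 for Ddx11, 0.46 for Kdm3b and 0.49 for Arhgap19. Of these, Tfcp2l1, Tk1, Zdbf2, Pced1b, Trh, Phc1, Tet1 and Ddx11 also passed the test between days in control cells alone. Trh, the thyrotropin-releasing hormone precursor, averaged 409 ± 106 normalised counts on day 5 in KO cells and had 157, 133 and 96.8 in the control libraries (difference 1.90 ± 0.44 SE, FDR = 0.0245). Tet1, a methylcytosine oxidase of ESCs, had 149, 170.0 and 215 on day 3 and 109.7, 90.8 and 168 on day 5 in control cells, and its averages in KO cells were 238 ± 26.6 and 365 ± 92.6 (SD, n = 3). Tk1, Zdbf2, Adam19, Pced1b, Pkmyt1, Trim71, Ranbp17 and Kdm3b overlap an annotated gene on the opposite strand.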

How the results depend on the processing

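With edgeR, TMM size factors, a low-count filter (at least 10 counts in 3 libraries), no independent filtering, only the compared groups, or a replicate block, the number of DEGs stayed within 1.5 times the main count. It was 195 higher and 20 lower with the fold threshold inside the test, and 2658 and 2743 by FDR alone. Leaving out 1 library gave 778 to 989 higher and 319 to 396 lower DEGs. The interaction count of 17 became 2 with edgeR, 8 without independent filtering, 88 with only the compared groups, 7 with a log2 difference beyond 1 (chosen after seeing the data) and 4 to 28 on leaving out 1 library; the causes were not tested.

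The same replicate numbers of the 2 days correlated by 0.17, 0.08 and 0.26 in their deviations from the group means. Pairs of other numbers correlated by -0.20 to -3.19e-04, so each sample correlated best with its own number. The labels do not say whether same-numbered samples were made together, and the main fit treats them as unpaired. With the replicate block, 1042 genes were higher and 395 lower, and 24 passed the interaction. With the block and only the compared groups these were 828, 311 and 345.

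Lists whose count moved by more than 1.5 times from the main one did so mostly with only the compared groups: 12 extracellular matrix genes lower, 4 primed and early lineage genes, 8 p53, 8 glycolysis, 12 cholesterol synthesis, 3 neuronal, 2 trophoblast and 1 sex-linked higher. With the replicate block added to that setting, these were 14 matrix, 8 p53, 8 glycolysis, 14 cholesterol, 3 neuronal and 1 sex-linked, with 4 interferon genes and 1 transgene factor higher. With edgeR, 1 DNA methylation and Polycomb gene was lower and 2 trophoblast markers higher, the latter also with TMM size factors or the replicate block; with TMM size factors 1 sex-linked transcript was higher. Leaving out 1 library gave 3 to 6 matrix, 4 to 7 contractile, 2 to 4 fibroblast, 10 to 19 DNA replication and 1 to 2 DNA methylation and Polycomb genes lower, and 1 to 2 primed, 3 to 8 interferon, 0 to 1 neuronal, 2 to 6 keratinocyte, 1 to 3 trophoblast and 0 to 1 sex-linked genes higher. The causes were not tested. Of 122 results for genes picked by the naming rule, 117 of them called, none reversed its direction in the settings that gave an FDR, and 18 lost the call in at least 1; other genes named in the text were not rerun one by one.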
